A study of Homo sapiens with 27 samples.

Results

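The genes described here are 30 members of cholesterol metabolism among 60619 gene rows of the count table. They were chosen by function, with earlier results of these data known. Their 21 synthesis members comprise 5 genes that lead from acetyl-CoA to isopentenyl diphosphate, 3 that make larger isoprenoid diphosphates, 3 that make squalene and close it to lanosterol, and 10 that turn lanosterol into cholesterol. The other 9 members act in uptake, lysosomal egress, esterification and transport of cholesterol. All 30 members were in the table under an Ensembl gene identifier and passed the filter on low counts in every fit. RNA-Seq was read from 27 libraries of 9 groups with 3 libraries each, made from 2 human cell lines of invasive lobular breast carcinoma, an estrogen receptor-positive breast cancer type that typically lacks E-cadherin.

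MM134 is the line MDA-MB-134VI. Its groups were MM134_parental and the long-term estrogen-deprived (LTED) variants A, B, D and E (LTED-A and so on). The groups of the other line were SUM44PE_parental, SUM44F_parental and the variants SUM44 LTED-A and LTED-B. SUM44F was made from SUM44PE by a change to medium with fetal bovine serum, and was the parental culture of the SUM44 variants. LTED variants came out of months of growth in medium with charcoal-stripped serum, which is poor in steroids and other lipophilic compounds, and were kept in it. The parental cells had been in such serum for 3 days, so all libraries come from hormone-deprived cells, and a comparison of LTED with parental cells contrasts long with short deprivation. Each variant is 1 population that emerged in culture. The 3 libraries of a group came from wells seeded in triplicate, so p-values measure the spread between wells of a culture and not between independent derivations.

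Cells make cholesterol from acetyl-CoA through the mevalonate pathway, which also supplies isoprenoids for protein prenylation, dolichol and ubiquinone. When sterols in the endoplasmic reticulum are low, SREBP transcription factors are released from the membrane and raise the transcription of most synthesis genes, usually with the factors NF-Y and SP1 at nearby CCAAT and GC boxes. Cholesterol that arrives in lipoproteins is freed from its esters by lysosomal acid lipase, leaves the lysosome through NPC2 and NPC1, and is carried between membranes by transfer proteins or stored as esters made by SOAT enzymes.

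Depth ranged from 28583554 to 134882175 estimated counts per library. The counts of libraries 2 and 3 in the SUM44 LTED-A group differed by less than sampling noise. Both were therefore counted as 1 sample, which leaves n = 2 in that group. Markers of luminal epithelial cells (KRT8, KRT18, KRT19, ESR1, GATA3, FOXA1 and XBP1) were present in every library, with a summed level from 5384 to 9586 CPM (counts scaled to library size), and CDH1, the E-cadherin gene, stood between 8.35 and 24.6 CPM. SUM44F replicate 1 stood apart in markers of other cell types. Of 5 stromal and endothelial markers, 4 were more than 2-fold higher there than in the other SUM44F libraries. So were immune markers: PTPRC was at 2.60 CPM against 0.332 and 0.423 CPM, CD14 at 1.82 CPM against 0.0586 and 0.0445 CPM, and CD68 at 3.95 CPM against 1.54 and 1.62 CPM. The summed stromal level was 198.1 CPM in that library, 33.3 and 39.7 CPM in the other SUM44F libraries and 7.66 to 12.5 CPM in SUM44 LTED cells. The endothelial marker PECAM1, which was not raised in replicate 1 (27.3 CPM), gave 26.8 and 21.7 CPM of the sums in the other SUM44F libraries, against 1.77 to 3.91 CPM in SUM44 LTED cells. DCN, a fibroblast proteoglycan, was at 38.9 CPM against 0.547 and 0.768 CPM. Over all genes, replicate 3 lay further out: a chi-square of the counts, divided by its degrees of freedom, was 42.8 and 39.2 for replicate 3 against replicates 1 and 2, and 14.1 between those. In SUM44 LTED-A it was 58.15 between libraries 1 and 2, the highest of any pair within a group. Between libraries 2 and 3 there it was 0.312, the lowest of any pair. SUM44 results are therefore given without SUM44F replicate 1 or 3 where a call differs.

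In the text, levels are CPM scaled by TMM factors, changes are log2 fold changes with the standard error (SE) of the fit, and a gene is called changed where the fold is above 1.5 and the adjusted p below 0.001 in edgeR's quasi-likelihood test, with Benjamini-Hochberg adjustment over all genes of the fit. The 4 MM134 comparisons share the parental libraries, and both SUM44 comparisons share the SUM44F libraries. Where a member is lower or higher in bulk RNA, a change in the share of cells that express it and a change per cell cannot be told apart.

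Before long-term deprivation, the lines already differed in these genes. Per kilobase of exon (the union of the exons of a gene), TMEM97 was the highest member in MM134 parental cells, at 59.2 ± 1.32 CPM per kilobase (SD, n = 3). Over the longest transcript ACAT2 came first, at 71.6 against 70.5 CPM per kilobase for TMEM97. CYP51A1 was the highest in SUM44F cells, at 54.8 ± 0.201 CPM per kilobase. The lowest member per kilobase was NPC1L1 in MM134, at 0.0838 ± 0.0198 CPM per kilobase, and SOAT2 in SUM44F, at 0.592 ± 0.163 CPM per kilobase. On this scale 14 members stood above 10 CPM per kilobase in MM134 parental cells and 17 in SUM44F cells.

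**Figure D1:**
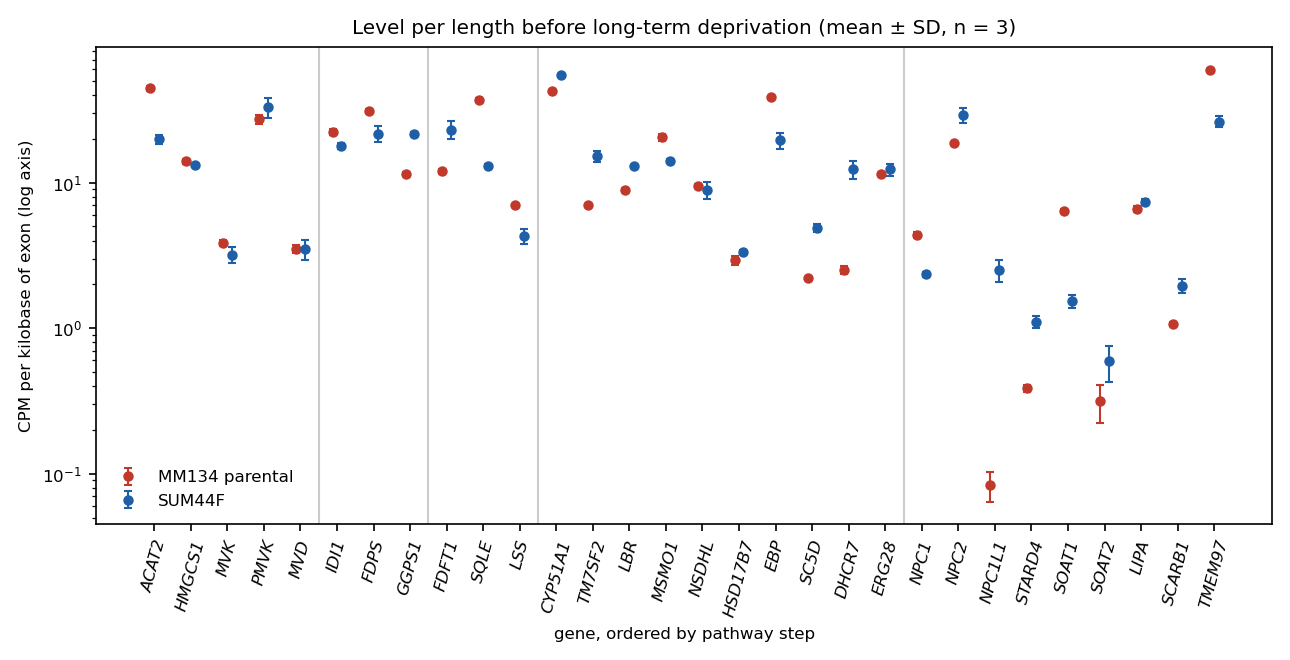
Level of each member in CPM per kilobase of exon, on a log axis, in MM134 parental (red) and SUM44F (blue) cells, as mean ± SD of 3 libraries, with members ordered by step and grey lines between steps. DHCR7 and NPC1L1 sit lower in MM134, SOAT1 and SQLE sit higher there, and HMGCS1 and MVD nearly coincide.

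In this contrast of the parental cultures, 16 members were called, 7 higher in MM134 and 9 lower, beside 38.1% of all genes called in either direction. Higher in MM134 were ACAT2, SQLE, LSS, EBP, NPC1, SOAT1 and TMEM97. SOAT1, the main enzyme that esterifies cholesterol outside liver and gut, was at 44.9 ± 1.11 CPM in MM134 and 10.7 ± 1.08 CPM in SUM44F (log2 2.05, SE 0.068, edgeR adjusted p = 3.60e-17). SQLE, squalene epoxidase, was at 158.8 and 56.2 CPM (log2 1.48, SE 0.054). Lower in MM134 were GGPS1, FDFT1, TM7SF2, SC5D, DHCR7, NPC2, NPC1L1, STARD4 and SCARB1. DHCR7, which reduces 7-dehydrocholesterol in the last step to cholesterol, was at 17.2 ± 1.117 CPM in MM134 and 85.2 ± 11.96 CPM in SUM44F (log2 -2.32, SE 0.080). NPC1L1, the sterol uptake protein known from the gut, was at 0.442 ± 0.104 CPM in MM134 against 13.2 ± 2.20 CPM (log2 -4.91, SE 0.17). Neighbours moved in the same direction for some of these genes: over the 20 expressed genes on each side, the median log2 difference was 0.62 around LSS (0.68), -0.74 around GGPS1 (-0.94) and 0.57 around NPC1 (0.88). Around SOAT1 (2.05) it was -0.73. Without SUM44F replicate 1 the count was 7 higher and 8 lower, since NPC2 passed from -0.64 to -0.58. Without SUM44F replicate 3, SOAT2 was also called lower in MM134 (-1.12, against -0.90 with all libraries).

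In MM134, the members that were called in LTED variants were nearly all higher than in parental cells, and the others did not pass the thresholds. In LTED-A, 10 members rose and none fell, beside 10.5% of all genes called up and 9.82% called down. LTED-B also had 10 members up and none down, beside 8.11% up and 7.75% down. In LTED-D 13 rose and none fell, beside 9.63% up and 7.95% down, and in LTED-E 16 rose and 1 fell, beside 8.71% up and 10.3% down. The median log2 change over the 30 members was 0.23 in LTED-A, 0.33 in LTED-B, 0.41 in LTED-D and 0.70 in LTED-E, where the medians of all genes tested lay between -0.03 and 0.02.

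**Figure D2:**
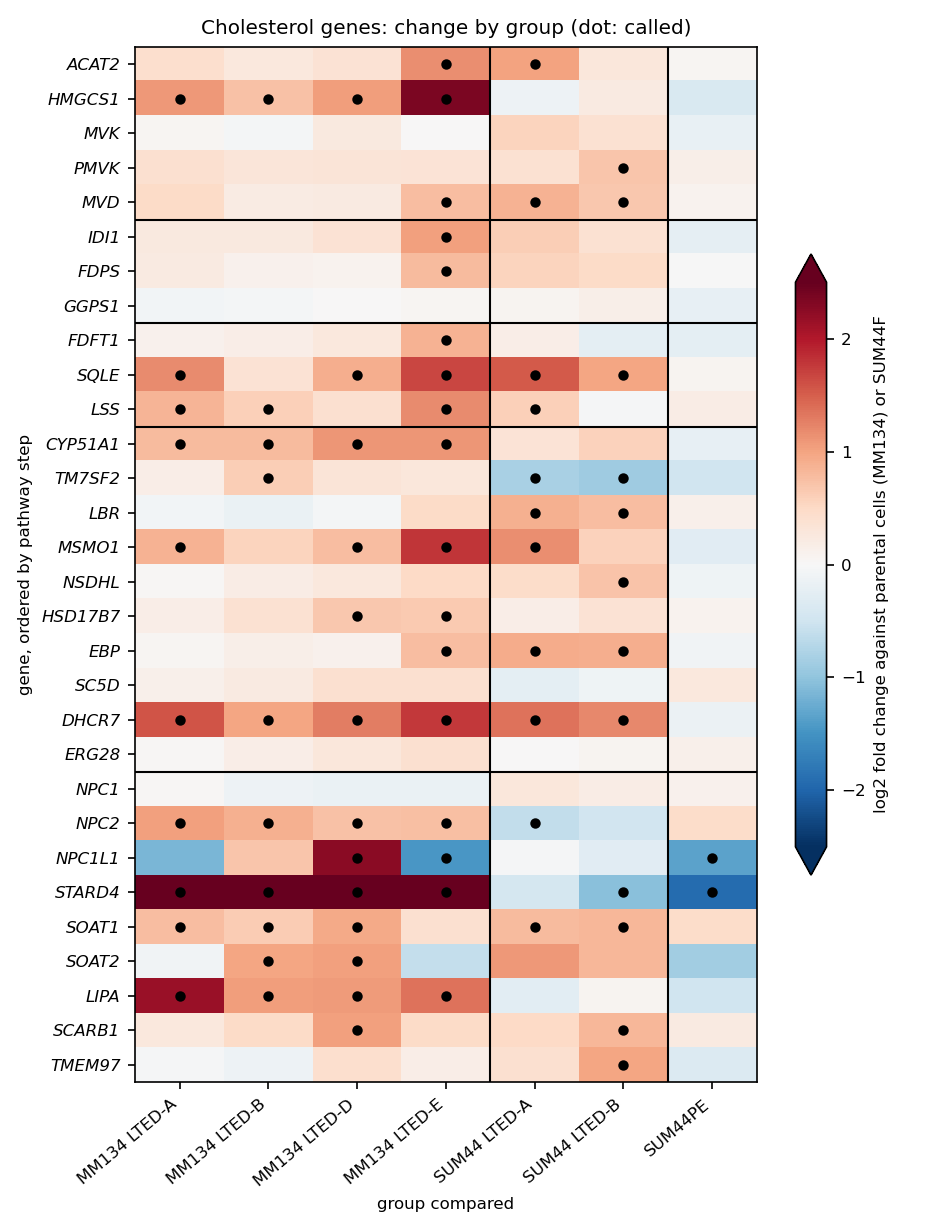
Log2 fold change of the 30 members (rows, ordered by step, black lines between steps) in each LTED variant against its parental culture and in SUM44PE against SUM44F (columns). Red is higher, blue lower, the colour scale stops at 2.5 in either direction, and a dot marks a call. STARD4, LIPA, HMGCS1, CYP51A1, DHCR7 and NPC2 have a dot in each MM134 column, and TM7SF2 and STARD4 are red in MM134 and blue in SUM44.

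Among the members, the largest change in each MM134 variant was that of STARD4 (ENSG00000164211), whose protein shuttles cholesterol between the plasma membrane and the endoplasmic reticulum. It stood at 2.14, 2.35 and 2.10 CPM in the parental libraries. The LTED-A libraries had 14.3, 13.8 and 12.9 CPM, LTED-B had 12.9, 12.02 and 12.2 CPM, LTED-D had 13.8, 14.6 and 13.2 CPM, and LTED-E had 26.2, 27.5 and 26.6 CPM. Every LTED library was above every parental one, and LTED-E was above the other variants. The log2 changes were 2.63, 2.49, 2.67 and 3.61 in LTED-A, B, D and E, with SEs from 0.070 to 0.074 and edgeR adjusted p from 3.54e-18 to 2.84e-15. STARD4 shares 124 exon bases with STARD4-AS1 on the opposite strand, which had 77.4% as many counts over all libraries, and the strand setting of the counting is not given in the sources used here.

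In the first step, HMGCS1 alone was called in LTED-A, B and D. HMGCS1 (ENSG00000112972) encodes the cytosolic synthase that makes HMG-CoA. Its level was 96.5, 91.1 and 89.9 CPM in the parental libraries, 198.4, 200.7 and 194.4 in LTED-A, 139.7, 154.6 and 164.4 in LTED-B, 192.4, 191.3 and 186.0 in LTED-D, and 479.8, 454.8 and 473.6 in LTED-E. The groups did not overlap, and LTED-E held more than any other. The log2 changes were 1.09, 0.73, 1.05 and 2.35 (SE 0.044 to 0.045, edgeR adjusted p from 2.53e-18 to 8.36e-11). ACAT2, which joins 2 acetyl-CoA molecules to begin the pathway and shares 454 exon bases with TCP1 on the opposite strand (246.9% as many counts), and MVD, mevalonate diphosphate decarboxylase, were called in LTED-E, at 1.16 and 0.76, and were between 0.20 and 0.48 in the other variants. The kinases MVK and PMVK were called in no MM134 variant, with values from -0.05 to 0.25 and from 0.30 to 0.41.

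Of the isoprenoid diphosphate genes, IDI1, the isomerase that supplies dimethylallyl diphosphate, and FDPS, farnesyl diphosphate synthase, were called in LTED-E (1.02, SE 0.040, and 0.79, SE 0.035) and lay between 0.09 and 0.37 elsewhere. GGPS1, which makes geranylgeranyl diphosphate for prenylation and lies off the sterol route, lay between -0.07 and 0.05 in the MM134 variants. Another 14 genes belong to other isoprenoid branches, such as prenyltransferase subunits and genes of dolichol and ubiquinone synthesis. They gave 2 rises in LTED-A, 1 in LTED-E and none in LTED-B or D, with medians from -0.03 to 0.23. Of all genes, 8.11% to 10.5% were called up in these variants, and for a list this short the counts are near those shares.

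From squalene to lanosterol, SQLE (ENSG00000104549) stood at 164.7, 154.3 and 157.4 CPM in parental cells, 353.1, 370.5 and 362.8 in LTED-A, 199.9, 205.4 and 202.1 in LTED-B, 299.7, 297.8 and 294.4 in LTED-D, and 498.8, 507.5 and 493.7 in LTED-E. It was called in LTED-A (1.18), LTED-D (0.92) and LTED-E (1.67), with an SE of 0.028 each. LTED-B, at 0.35, stayed under the fold threshold although its libraries did not overlap the parental ones. LSS, which closes the ring of lanosterol, was called in LTED-A (0.84), B (0.59) and E (1.18), and the LTED-B call sat just above the threshold of 0.585 and was lost without parental replicate 2 or LTED-B replicate 2 (0.58 and 0.56). FDFT1, squalene synthase, was called in LTED-E, at 0.87, and was 0.12 to 0.27 in the others.

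Of 10 genes from lanosterol to cholesterol, 3 rose in LTED-A, 3 in LTED-B, 4 in LTED-D and 5 in LTED-E. DHCR7 (ENSG00000172893) stood at 16.0, 18.2 and 17.6 CPM in parental cells, 48.0, 51.2 and 55.3 in LTED-A, 33.1, 35.6 and 34.1 in LTED-B, 39.5, 40.7 and 44.3 in LTED-D, and 57.2, 59.7 and 59.1 in LTED-E. All of its LTED libraries were above the parental range, at log2 changes of 1.57, 0.99, 1.28 and 1.78 (SE 0.057 to 0.058). CYP51A1 (ENSG00000001630), lanosterol demethylase, went from 180.3, 174.4 and 177.7 CPM to between 288.5 and 385.2 CPM in the 12 LTED libraries, at log2 changes of 0.79, 0.79, 1.10 and 1.10. It shares 108 exon bases with AKAP9 on the opposite strand, which had 112.0% as many counts over all libraries. MSMO1 (ENSG00000052802), the C4-methyl sterol oxidase, was called in LTED-A (0.87), D (0.77) and E (1.79), where it reached 202.4, 204.0 and 198.2 CPM from 57.6, 56.0 and 62.2 CPM, and was 0.55 in LTED-B. HSD17B7, a ketosteroid reductase of C4 demethylation, was called in LTED-D (0.67) and E (0.66), and its pseudogene HSD17B7P2 had 12.4% as many counts. EBP, the sterol isomerase, was called in LTED-E (0.78). TM7SF2, a sterol C14-reductase, was called in LTED-B (0.61). LBR, the other C14-reductase and an inner nuclear membrane protein, NSDHL, SC5D and the scaffold gene ERG28 were called in no MM134 variant.

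Among uptake and handling genes, LIPA (ENSG00000107798), lysosomal acid lipase, rose from 34.0, 31.4 and 31.6 CPM to 147.3, 147.8 and 140.8 in LTED-A, 63.7, 67.0 and 69.5 in LTED-B, 67.3, 67.4 and 66.1 in LTED-D, and 83.8, 81.3 and 80.8 in LTED-E. Its log2 changes were 2.16, 1.05, 1.06 and 1.35 (SE 0.038 to 0.039), and no LTED library came near the parental ones. NPC2 (ENSG00000119655), the soluble lysosomal sterol carrier, rose from 48.6, 47.7 and 49.0 CPM to between 77.7 and 102.3 CPM in the 12 LTED libraries (1.02, 0.88, 0.73 and 0.75). NPC2 shares 103 exon bases with ISCA2 on the opposite strand, which had 33.0% as many counts over all libraries. LIPA shares 65 and 94 exon bases with IFIT2 and IFIT3 on its opposite strand, which had 10.3% and 3.42% as many counts. NPC1, the membrane protein that takes sterol from NPC2, was between -0.16 and 0.03. SOAT1 rose in LTED-A (0.76), B (0.63) and D (0.94), and was 0.39 in LTED-E. Beside these lysosomal genes, CD68 and PECAM1 of the marker lists of other cell types also stood higher in LTED libraries. The summed stromal and endothelial level did not: it was 22.4 to 29.1 CPM in MM134 parental libraries and 10.9 to 24.2 CPM in MM134 LTED libraries. CD68, a lysosomal membrane protein of macrophages that other cells can also express, was at 0.216 CPM in parental cells and 14.4, 6.80, 3.99 and 2.59 CPM in LTED-A, B, D and E, while PTPRC, the pan-leukocyte marker, stayed between 0.0696 and 0.365 CPM, CD14 did not exceed 0.291 CPM and CD3E did not exceed 0.0561 CPM. The endothelial marker PECAM1 was at 0.999 CPM in parental cells and 4.64, 1.18, 1.70 and 2.72 CPM in the variants, while DCN did not exceed 2.83 CPM in any MM134 library. Their part in the LIPA and NPC2 results was not tested.

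NPC1L1 varied in both directions from few counts, 5 to 92 per library in MM134. It stood at 0.343, 0.431 and 0.550 CPM in parental cells, 0.210, 0.186 and 0.186 in LTED-A, 0.673, 0.590 and 0.870 in LTED-B, 2.26, 1.88 and 2.14 in LTED-D, and 0.148, 0.106 and 0.214 in LTED-E. It rose in LTED-D (2.26, SE 0.21) and fell in LTED-E (-1.45, SE 0.30, edgeR adjusted p = 5.27e-04), a call lost when any of 4 libraries was left out. The expressed neighbours of NPC1L1 had a median change of 0.42 in LTED-D. SCARB1, the HDL receptor, rose in LTED-D (1.02) and was 0.27 to 0.48 in the other variants. SOAT2, the esterifying enzyme of liver and gut, stood between 0.395 and 1.56 CPM in MM134, and its calls in LTED-B (0.99) and LTED-D (1.02) were lost when single libraries were left out. TMEM97, an endoplasmic reticulum protein that binds NPC1, was called in no MM134 variant.

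**Figure D3:**
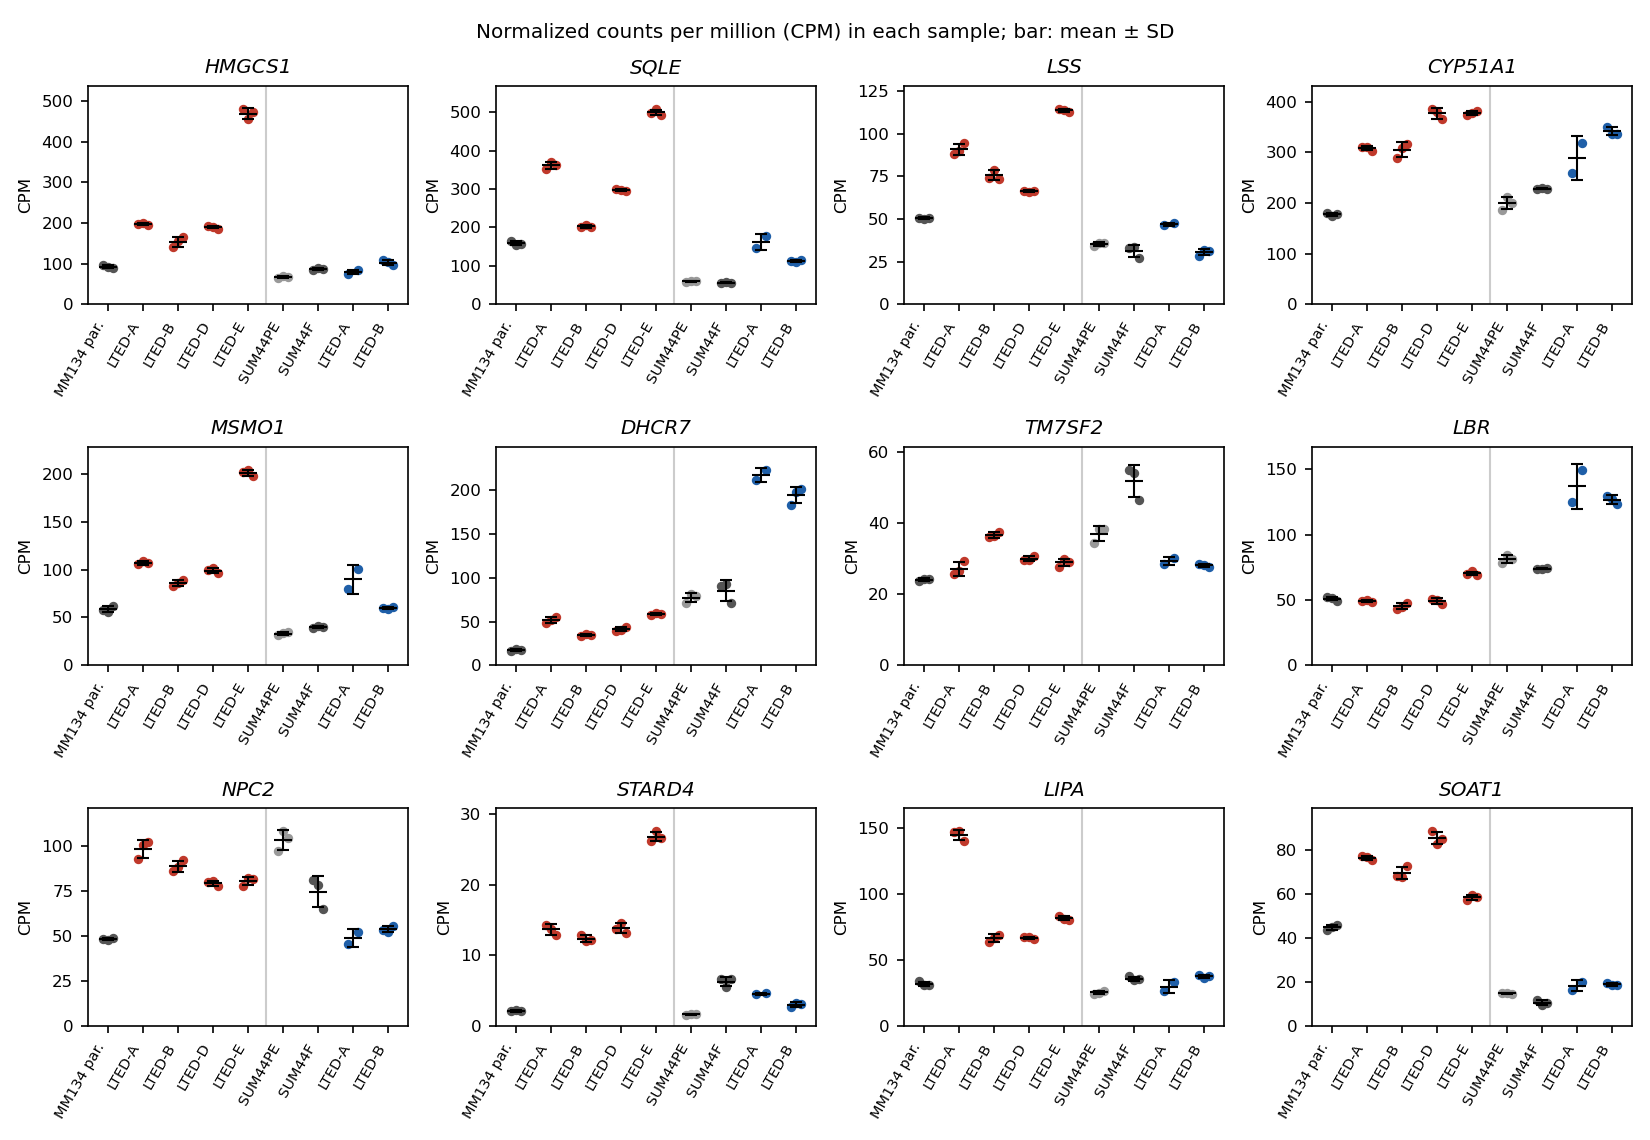
CPM of 12 members in each sample (points) with the mean and SD of the group (black bars), each panel with its own linear axis from 0. MM134 LTED groups are red, SUM44 LTED groups blue and parental cultures grey. STARD4 climbs from about 2 CPM in MM134 parental cells to 26.2 to 27.5 CPM in LTED-E, and TM7SF2 and NPC2 in both SUM44 LTED groups lie below all SUM44F libraries.

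The stretches just before a transcription start are shown for 6 of the 10 members that rose in at least 3 MM134 variants, 5 with CCAAT boxes and 1 without. LSS, SOAT1 and LIPA, which also had windows, are not shown. RefSeq promoter windows of GRCh38.p14, 250 bases before a start, were found for 25 of the 30 members, with 35 starts. The letters CCAAT, searched on both strands, stood in 24 of 35 member windows (68.6%) and in 32.0% of all 35116 windows of the table. The GC box GGGCGG, also on both strands, stood in 29 member windows (82.9%) and in 42.6% of all windows. The core, TCACNCCAC, of the sterol regulatory element stood in none of the member windows and in 0.883% of all, which says only that these letters are not in the windows searched. A match is a description of letters and not a shown binding site. Below, capitals mark CCAAT or its reverse complement, and all runs read 5′ to 3′ on the strand of the gene. Of each window, only the longest stretch without exons of coding transcripts is shown.

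STARD4 (chr5:111512591-111512785, minus strand): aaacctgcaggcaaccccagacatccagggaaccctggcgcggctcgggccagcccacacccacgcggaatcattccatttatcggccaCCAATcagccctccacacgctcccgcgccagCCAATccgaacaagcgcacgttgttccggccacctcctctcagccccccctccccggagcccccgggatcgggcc
HMGCS1 (chr5:43313513-43313662, minus strand): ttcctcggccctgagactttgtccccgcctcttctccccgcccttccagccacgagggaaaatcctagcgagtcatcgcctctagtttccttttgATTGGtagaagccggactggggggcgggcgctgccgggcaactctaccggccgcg
DHCR7 (chr11:71448436-71448643, minus strand): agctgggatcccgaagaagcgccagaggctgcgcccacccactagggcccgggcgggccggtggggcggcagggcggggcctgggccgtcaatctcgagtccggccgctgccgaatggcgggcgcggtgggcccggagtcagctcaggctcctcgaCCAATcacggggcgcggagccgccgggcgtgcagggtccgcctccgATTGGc
NPC2 (chr14:74493609-74493755, minus strand): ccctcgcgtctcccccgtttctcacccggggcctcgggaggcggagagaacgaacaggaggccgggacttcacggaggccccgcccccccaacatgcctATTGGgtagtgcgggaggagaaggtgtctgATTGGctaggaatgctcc
MSMO1 (chr4:165327419-165327666, plus strand): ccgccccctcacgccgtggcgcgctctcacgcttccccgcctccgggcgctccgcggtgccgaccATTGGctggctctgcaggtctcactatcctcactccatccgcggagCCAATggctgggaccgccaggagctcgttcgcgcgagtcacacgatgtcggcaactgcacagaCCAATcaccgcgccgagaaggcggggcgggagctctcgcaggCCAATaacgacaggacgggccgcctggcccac
CYP51A1 (chr7:92134504-92134665, minus strand): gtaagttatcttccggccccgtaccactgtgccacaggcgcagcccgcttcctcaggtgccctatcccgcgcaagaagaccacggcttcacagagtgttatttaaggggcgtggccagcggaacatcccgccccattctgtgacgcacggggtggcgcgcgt

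MSMO1 held 4 boxes, at positions -185, -139, -76 and -34 from the start. STARD4 held 2, at positions -161 and -130, DHCR7 held 2, at -94 and -48, and NPC2 held 2, at -144 and -114. HMGCS1 held 2, at -155 and -100, of which the first lies in the stretch shown. DHCR7, NPC2 and HMGCS1 each have another start in the table, whose window held no box. LSS held 1 box, SOAT1 held 1, and the 3 windows of LIPA held 0, 3 and 1. CYP51A1, called in each MM134 variant, held none, as did LBR, NPC1 and PMVK, which were called in no MM134 variant. LBR was called up in both SUM44 variants and PMVK in SUM44 LTED-B. MVK held 5 boxes and was called in no variant of either line. GGPS1, NSDHL, SC5D, ERG28 and TMEM97 also had boxes and were called in no MM134 variant.

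The MM134 variants differed among each other mainly by LTED-E. Of the 30 members, 17 had their highest change in LTED-E, 8 in LTED-D, 4 in LTED-A and 1 in LTED-B. No share over all genes is given for this count. In the direct test, 12 members were higher in LTED-E than in LTED-B and 2 lower (9.78% of all genes called in either direction), 10 were higher than in LTED-D and 2 lower (11.6%), and 7 were higher than in LTED-A and 1 lower (7.84%). Synthesis members made up 11, 9 and 6 of those higher in LTED-E. HMGCS1 differed most among them, at log2 -1.62 for LTED-B, -1.30 for LTED-D and -1.26 for LTED-A against LTED-E, and MSMO1 was at -1.24, -1.02 and -0.93 in the same tests. ACAT2, IDI1, FDFT1, EBP and STARD4 were also higher in LTED-E in each of these tests.

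Among LTED-A, B and D, fewer members differed. LTED-A against LTED-B gave 4 calls (7.06% of all genes), with SQLE and LIPA higher in LTED-A and NPC1L1 and SOAT2 lower. LTED-A against LTED-D gave 4 calls (9.88%), with LIPA higher and NPC1L1, SOAT2 and SCARB1 lower, and LTED-B against LTED-D gave 1 (7.4%), NPC1L1. LIPA was higher in LTED-A than in LTED-B, D and E by 1.11, 1.10 and 0.81 (SE 0.035 to 0.036). No synthesis member was called between LTED-A and LTED-D or between LTED-B and LTED-D.

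In SUM44, LTED-A had 9 members up and 2 down, beside 6.39% of all genes up and 7.28% down, and LTED-B had 10 up and 2 down, beside 8.69% up and 8.57% down. The median log2 change of the members was 0.43 and 0.38, where the medians of all genes were -0.06 and -0.09. Called up in LTED-A were ACAT2, MVD, SQLE, LSS, LBR, MSMO1, EBP, DHCR7 and SOAT1, and in LTED-B PMVK, MVD, SQLE, LBR, NSDHL, EBP, DHCR7, SOAT1, SCARB1 and TMEM97. Called down were TM7SF2 and NPC2 in LTED-A, and TM7SF2 and STARD4 in LTED-B. Without SUM44F replicate 1 the counts were 8 up and 1 down in LTED-A, where LSS (0.63) and NPC2 (-0.54) were no longer called, and 10 up and 2 down in LTED-B. The largest shift of a member without that library was 0.18, for SOAT2, in both variants.

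SQLE showed the largest rise in SUM44 LTED-A. It stood at 54.8, 57.8 and 56.1 CPM in SUM44F, 147.6 and 177.8 in LTED-A, and 112.3, 109.6 and 114.0 in LTED-B, at log2 changes of 1.53 (SE 0.084) and 0.99 (SE 0.077). DHCR7 stood at 90.8, 93.3 and 71.5 CPM in SUM44F, 211.9 and 223.0 in LTED-A, and 183.7, 198.8 and 201.8 in LTED-B (1.35, SE 0.11, and 1.19, SE 0.10). The LTED libraries of both genes lay above all SUM44F libraries, and SUM44F replicate 3 was the lowest for DHCR7. LBR rose from 73.6, 73.6 and 74.6 CPM to 124.9 and 149.2 in LTED-A and 129.4, 127.6 and 123.1 in LTED-B (0.89 and 0.77). EBP rose from 37.8, 36.0 and 29.3 CPM to 62.2 and 69.0 in LTED-A and 62.4, 66.3 and 64.5 in LTED-B (0.94 and 0.91). SOAT1 rose from 11.9, 9.80 and 10.5 CPM to 16.7 and 20.3 in LTED-A and 19.7, 18.6 and 18.6 in LTED-B (0.79 and 0.82). MVD was 0.86 and 0.68 in the variants, and its neighbours had a median of 0.30 in LTED-B. Several SUM44 calls depended on single samples, of which the fit had 8. In LTED-A, MVD lost its call when any of 2 samples was left out, SOAT1 for 6, NPC2 for 7 and LSS for all 8. In LTED-B, MVD lost its call for 6 samples, PMVK for 5 and NSDHL for 3. SUM44F replicate 3 was among these libraries for LSS (0.52 without it), SOAT1 (0.79), MVD in LTED-B (0.55) and PMVK (0.57).

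TM7SF2 (ENSG00000149809) fell while LBR, which carries out the same reduction, rose. It stood at 54.9, 54.1 and 46.6 CPM in SUM44F, 28.5 and 30.2 in LTED-A, and 28.4, 28.3 and 27.7 in LTED-B, at -0.82 (SE 0.087) and -0.88 (SE 0.077), and no LTED library reached the SUM44F range. Its expressed neighbours on chromosome 11 had a median of 0.30 in LTED-B. TM7SF2 shares 18 exon bases with VPS51 on the same strand, which had 164.3% as many counts. Its call in LTED-A was lost without LTED-A replicate 1 (-0.73, edgeR adjusted p = 0.00108). NPC2 stood at 81.0, 78.3 and 64.9 CPM in SUM44F, 45.6 and 52.4 in LTED-A, and 53.5, 52.4 and 55.7 in LTED-B (-0.61, SE 0.10, called, and -0.47, SE 0.090, not called). STARD4 stood at 6.70, 5.58 and 6.62 CPM, 4.52 and 4.71 in LTED-A, and 2.71, 3.31 and 3.15 in LTED-B (-0.45, not called, and -1.04, SE 0.13, called). HMGCS1, at 85.3, 88.6 and 87.0 CPM in SUM44F, 75.2 and 83.5 in LTED-A and 108.3, 103.0 and 95.4 in LTED-B, was not called (-0.13, SE 0.079, and 0.23, SE 0.071), and neither was LIPA (-0.27, SE 0.10, and 0.07, SE 0.090). Between the SUM44 variants, 2 members were called, beside 7.42% of all genes, ACAT2 (0.72, SE 0.094) and MSMO1 (0.60, SE 0.092), both higher in LTED-A. The median difference over the neighbours of ACAT2 was 0.61.

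The mean change over the 4 MM134 variants and that over both SUM44 variants were compared in 1 fit of both lines, and 8 members were called, beside 20.9% of all genes. With a list this short, that count is near the share over all genes. The change was larger in MM134 for STARD4, LIPA, NPC2, HMGCS1 and TM7SF2, and larger in SUM44 for LBR, EBP and TMEM97. STARD4 had mean changes of 2.85 in MM134 and -0.74 in SUM44, a difference of 3.59 (SE 0.11, edgeR adjusted p = 3.77e-17). The SUM44 mean is against SUM44F, and STARD4 was lower still in SUM44PE (-1.93 against SUM44F), which was not in this fit. For LIPA the means were 1.41 and -0.10 (difference 1.49, SE 0.079), for NPC2 0.84 and -0.54 (1.37, SE 0.076), for HMGCS1 1.31 and 0.05 (1.25, SE 0.070), and for TM7SF2 0.35 and -0.85 (1.19, SE 0.067). LBR had 0.05 and 0.83 (-0.79, SE 0.067), EBP 0.27 and 0.92 (-0.66, SE 0.076), and TMEM97 0.11 and 0.69 (-0.60, SE 0.066). For DHCR7 the means were 1.41 and 1.27, a difference of 0.12 (SE 0.092), and for SQLE 1.03 and 1.26 (-0.24, SE 0.063), which was under the fold threshold. Without SUM44F replicate 1 there were also 5 and 3 calls in these directions. EBP lost its call without SUM44F replicate 3 (-0.54), and TMEM97 lost it for each of 4 libraries (-0.58 to -0.52).

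**Figure D4:**
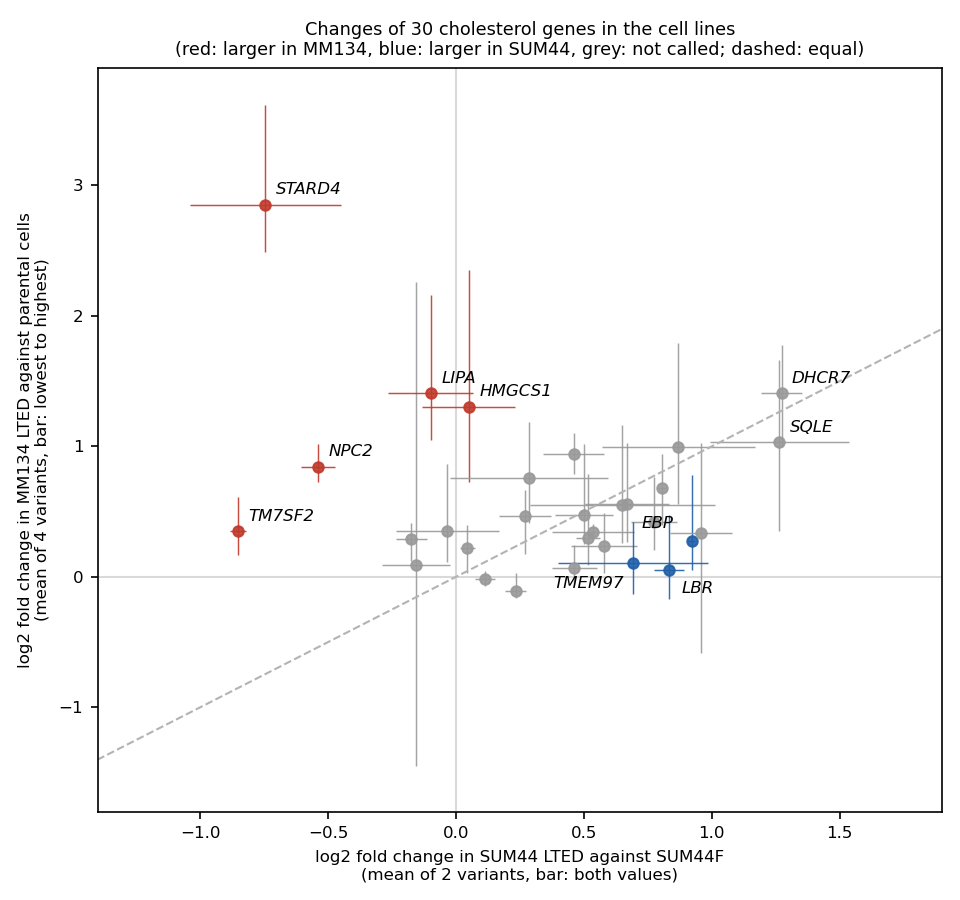
Mean log2 change of each member in SUM44 LTED (horizontal, bar between both variants) and MM134 LTED cells (vertical, bar from the lowest to the highest variant), with the dashed line at equal change. Red members changed more in MM134 and blue ones more in SUM44 by the test of the difference. STARD4 (2.85 and -0.74), LIPA, NPC2, HMGCS1 and TM7SF2 lie above the line, and DHCR7 and SQLE lie near it.

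Between SUM44PE and SUM44F, few genes of any kind were called, with 2.85% of all genes higher in SUM44PE and 2.72% lower. Of the members, none was called higher and 2 were called lower. For a list this short, these counts are near those shares. STARD4 stood at 1.54, 1.75 and 1.69 CPM in SUM44PE, below all libraries of SUM44F (-1.93, SE 0.13, edgeR adjusted p = 3.72e-07), and NPC1L1 stood at 4.88, 5.42 and 5.34 CPM against 14.0, 14.8 and 10.7 (-1.34, SE 0.12). No synthesis member was called, and their median was -0.10.

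Other genes of sterol metabolism were counted from 4 further lists. Of 16 genes of sterol sensing and SREBP processing, 2, 1, 3 and 5 rose in MM134 LTED-A, B, D and E and 1 fell, in LTED-B, with medians from 0.30 to 0.40. These and the following counts stand beside 8.11% to 10.5% of all genes called up and 7.75% to 10.3% down in MM134, and 6.39% to 8.69% up and 7.28% to 8.57% down in SUM44, and with lists this short several are near those shares. In SUM44, 2 rose and 2 fell in LTED-A, and 2 rose and 3 fell in LTED-B. In SUM44PE against SUM44F, INSIG2 was called higher and 4 genes, RNF145, SREBF1, MYLIP and INSIG1, were called lower. This stands beside 2.85% of all genes higher and 2.72% lower. RNF145 and MYLIP were thus below SUM44F in SUM44PE as well as in the LTED variants. RNF145, a sterol-responsive ubiquitin ligase, fell from 20.2 ± 0.224 CPM in SUM44F to 1.14 ± 0.0023 in LTED-A and 4.98 ± 0.293 in LTED-B (log2 -4.15 and -2.02), and rose in MM134 LTED-D and E (1.04 and 1.18) but fell in LTED-B (-0.69). MYLIP, the ubiquitin ligase that targets lipoprotein receptors, fell from 129.9 ± 5.19 CPM in SUM44F to 56.5 ± 4.45 in LTED-A and 38.6 ± 1.64 in LTED-B (-1.20 and -1.75). SREBF1, named after its values were seen, rose in MM134 LTED-A (1.42), B (0.82) and E (1.08) and in both SUM44 variants (0.88 and 0.85), and was 0.51 in LTED-D.

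Of 17 other transport and ester genes, 16 passed the filter in each line, and 4 rose and 1 fell in MM134 LTED-A, 3 and 0 in LTED-B, 6 and 1 in LTED-D, and 2 and 2 in LTED-E. In SUM44, 2 rose and 3 fell in LTED-A, and none rose and 4 fell in LTED-B. CES1, a carboxylesterase that can hydrolyse cholesteryl esters, fell from 204.4 ± 20.8 CPM in SUM44F to 12.7 ± 1.10 in LTED-A and 19.8 ± 0.826 in LTED-B (-4.00 and -3.37). CES1 was also called lower in SUM44PE than in SUM44F. In MM134 it had 1 to 5 counts per parental library and 52 to 190 per LTED library, from 1.23 to 2.89 CPM, so no fold is given there. Among 12 oxysterol and side-chain genes, of which 8 passed the filter, HSD3B7, an enzyme of bile acid synthesis, rose from 11.9 ± 0.342 CPM in MM134 parental cells to 52.3 in LTED-A, 57.2 in LTED-B, 75.5 in LTED-D and 52.4 in LTED-E (2.13 to 2.68). CYP39A1, an oxysterol hydroxylase, fell in each MM134 variant, from 3.43 ± 0.413 CPM to between 1.19 and 1.44 CPM (-1.50, -1.37, -1.23 and -1.51). CYP7B1, the oxysterol 7-alpha-hydroxylase, had 28 to 70 counts in each SUM44F library, none in SUM44 LTED-A and at most 1 in LTED-B, which at a floor of 3 counts per library is at least 10.3-fold and 8.43-fold lower.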

How the data were processed

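RNA-Seq of 27 libraries was used as deposited: per the labels and the study's methods, the authors estimated counts per gene with Salmon 0.6.0 on hg38 and Ensembl release 82 annotation from a stranded total RNA kit. The deposited estimated counts were rounded to whole numbers. Read trimming and the strand setting are not given in the sources used here. Depth was 28583554 to 134882175 counts per library.

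Genes were tested with edgeR 4.0.16 (R 4.3.3, limma 3.58.1): TMM factors, filterByExpr and the quasi-likelihood test, 1 fit per cell line and 1 of both lines for the parental contrast and the difference between lines. A call needed a fold above 1.5 and a Benjamini-Hochberg adjusted p below 0.001 over all genes. CPM per kilobase used the union of exons in GENCODE annotation. Neighbours were the 20 genes on each side with a mean of at least 5 CPM. The pipeline was tested on simulated data. DESeq2 1.42.0, other scaling, filters, thresholds and leaving out each library were the alternatives.

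The members and lists were chosen with earlier results of these data known. All 30 members were to be named, with values per library for the 10 with the largest smallest change within a line and for those called in opposite directions, and up to 6 genes of the other lists. HMGCS1, NPC1L1 and SREBF1 were detailed after their values were seen. One gene of the marker lists is not reported here.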

Additional observations from a re-analysis of the deposited data

Results flagged for a closer look

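For 8 members the change in LTED cells differed between the lines by the test of the difference itself in edgeR, which is 8 of 30 beside 20.9% of all genes. With a list this short, that count is near the share over all genes. The change in MM134 minus that in SUM44 was 3.59 on the log2 scale for STARD4, 1.49 for LIPA, 1.37 for NPC2, 1.25 for HMGCS1, 1.19 for TM7SF2, -0.79 for LBR, -0.66 for EBP and -0.60 for TMEM97. STARD4, NPC2 and TM7SF2 were above 0 in each of 4 MM134 variants and below 0 in both SUM44 variants. The SUM44 changes are against SUM44F, and SUM44PE was not in this fit. STARD4 was lower in SUM44PE (-1.93 against SUM44F) than in either LTED variant, so its direction in SUM44 depends on the parental culture taken. In SUM44PE, TM7SF2 was at -0.50 and NPC2 at 0.46 against SUM44F, neither called. The LTED variants were not tested against SUM44PE. The means set 4 MM134 variants against 2 SUM44 variants, each variant being 1 population. Groups of 3 libraries were not tested for outlying samples.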

How the results depend on the processing

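No called value changed direction under the alternatives run. Of the recomputed counts of called members, 230 stayed within 1.5 times the reported count and 28 did not. Most of these changed the fold threshold, which changes how many genes can be called. At a minimum fold of 2, the counts were 6 in MM134 LTED-A (10 as reported), 2 in LTED-B (10), 8 in LTED-D (13), 11 in LTED-E (17), 4 in SUM44 LTED-A (11), 2 in SUM44 LTED-B (12), 9 between the parental lines (16), 5 for the difference between lines (8), 7 among MM134 variants (16) and 0 between SUM44 variants (2). With no minimum fold they were 16, 19, 24 and 26 in MM134 LTED-A, B, D and E, 15 for the difference between lines and 28 among MM134 variants. SUM44 LTED-A had 7 calls when fitted with parental cells alone. Leaving out 1 library at a time left 10 calls in MM134 LTED-A and between 8 and 10 in LTED-B, 12 and 13 in LTED-D, and 16 and 17 in LTED-E. The ranges were 7 to 9 in SUM44 LTED-A, 9 to 13 in SUM44 LTED-B, 15 to 17 between the parental lines, 6 to 8 for the difference between lines, 16 to 17 among MM134 variants, 2 in SUM44PE and 0 to 3 between SUM44 variants. The count of 2 between SUM44 variants is thus not stable: it was 4 at an adjusted p under 0.05, 1 with RLE size factors, 4 with SUM44 LTED-A libraries 2 and 3 kept separate, and 0 without any 1 of the LTED-B libraries. Same-numbered samples did not deviate together (median correlation -0.00508 in MM134 and 0.0281 in SUM44), so the numbers do not pair them. With a replicate block there were 4 calls between SUM44 variants, and no other count moved by more than 1.5 times. The fit with the block also kept SUM44 LTED-A libraries 2 and 3 separate. Separating them without a block gave 4 calls as well, so the part of the block cannot be told apart. The causes were not tested. Precision is limited by 3 wells per group, 2 in SUM44 LTED-A, and by low counts for NPC1L1 and SOAT2 in MM134.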
